A study of Mus musculus with 9 samples.

Results

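The cytoplasmic ribosomal protein genes are taken here as the protein-coding genes whose whole symbol is Rpl or Rps, a number and at most one more letter (a, x, y or l), with the stalk genes Rplp0, Rplp1 and Rplp2 and with Rpsa. The choice rests on symbol and biotype alone, and 78 of the 19305 genes listed in either table fitted it. Of these, 47 belong to the large and 31 to the small ribosomal subunit. The RNA came from LLC1, a mouse line derived from Lewis lung carcinoma, after 24 h of contact with artificially generated T cells labelled Th9, Th17 or Th0. LLC1 cells and T cells were mixed in equal number, and removal of CD4+ cells by sorting preceded extraction of total RNA. There were 9 libraries, 3 for each kind of T cell. LLC1 cells of the group here called Th0 had T cells beside them too and are not untreated cells. How the T cells were made is not given in the sources used here. Nothing says that the libraries of a group were separate cultures, and a p-value then reflects only how much these samples varied, which may be technical variation.

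A ribosome joins a small subunit, which reads the messenger RNA, to a large subunit, which forms the peptide bond and lets the new protein out through a tunnel. Each subunit holds ribosomal RNA and a fixed set of proteins, and most of those proteins are encoded by a single active gene. Mammalian ribosomal protein mRNAs start with a run of pyrimidines, the TOP motif (terminal oligopyrimidine tract), through which mTORC1, a growth-sensing kinase complex, controls their translation. Their promoters are known for sites of ETS transcription factors such as GABP. Several ribosomal proteins also act outside the ribosome, as Rpl5 and Rpl11 do when they bind Mdm2, the protein that keeps p53 low.

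Promoter windows (250 bases before to 50 bases after the start, RefSeq, build GRCm38.p6) were found for 58 of the 78 genes, 70 windows in all. The letters CTCTTTC, a core of the TOP tract, stood on either strand in 28.6% of these windows, against 8.16% of all 32851 windows. On the gene's own strand, from 30 bases before to 50 bases after the start, they stood in 18.6% against 1.08%. A TOP tract begins the mRNA, so a match elsewhere in a window is not one. The letters CCGGAAG, the core of an ETS site, stood in 35.7% of these windows, against 8.86% of all windows (the motifs can overlap by at most 1 letter). Shown are the 60 bases before and the 30 from the start for the genes on which the results turn: 4 genes that were called higher in both Th9 and Th17, Rps27l, which was called in Th17, and Rpl26 and Rps2, which were lower once Th0 replicate 1 was left out. Capitals mark either motif, read on either strand.
Rps26 (chr10:128626477-128626566, minus strand): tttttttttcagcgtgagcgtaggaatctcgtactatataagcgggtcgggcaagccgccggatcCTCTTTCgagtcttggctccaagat
Rpl37a (chr1:72711200-72711289, plus strand): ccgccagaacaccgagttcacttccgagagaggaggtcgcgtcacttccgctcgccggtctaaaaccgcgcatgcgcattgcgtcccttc
Rpl27 (chr11:101442185-101442274, plus strand): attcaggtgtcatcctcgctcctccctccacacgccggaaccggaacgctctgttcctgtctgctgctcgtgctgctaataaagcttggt
Rpl39 (chrX:37085193-37085282, minus strand): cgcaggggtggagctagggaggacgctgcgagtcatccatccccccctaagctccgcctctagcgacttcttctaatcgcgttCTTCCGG
Rps27l (chr9:66946026-66946115, plus strand): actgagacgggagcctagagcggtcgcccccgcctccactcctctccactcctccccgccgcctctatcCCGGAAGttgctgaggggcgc
Rpl26 (chr11:68901506-68901595, plus strand): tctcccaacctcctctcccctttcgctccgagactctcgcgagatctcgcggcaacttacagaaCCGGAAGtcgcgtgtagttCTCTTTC
Rps2 (chr17:24720003-24720092, plus strand): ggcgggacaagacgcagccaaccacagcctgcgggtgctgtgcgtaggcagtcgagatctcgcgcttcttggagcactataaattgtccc
Rps26 and Rpl26 both carry the letters CTCTTTC within the 30 bases from the start, in Rpl26 at the end of the stretch shown. A link of either motif to the fold changes was not tested. The counts that follow are of matches anywhere in a window on either strand, not of TOP tracts. Of the 16 genes with a window that were called higher in Th9, 4 held the letters CTCTTTC and 4 the ETS letters. Of the 41 genes with a window that were not called, 13 and 20 did. In Th17 the 6 called genes held them in 2 and 4 cases, and the 51 not called in 15 and 20.

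The measure is a rounded, normalized read count per gene, given in a table of 6 libraries with Th9 and in another with Th17. Both tables hold the same 3 Th0 libraries, which differ between tables by a constant factor per library, so the comparisons of Th9 and of Th17 with Th0 share their controls. The libraries summed to between 13135611 and 15923877. Th0 replicate 1 stood apart: the 2 mitochondrial rRNA genes (mt-Rnr1 and mt-Rnr2) and Gm26917, a non-coding gene, took 31.1% of its total, against 14.9% to 21.8% in the other libraries. With these 3 RNA genes set aside, the ribosomal protein genes made up 3.14%, 3.25% and 3.20% of the total in Th9 replicates 1 to 3 and 2.98%, 2.80% and 2.85% in Th17 replicates 1 to 3. In Th0 replicates 1 to 3 they made up 2.51%, 2.93% and 2.84%. The Th9 libraries were thus all above Th0, whereas the Th17 libraries overlapped Th0 replicates 2 and 3. Th0 replicate 1 was the lowest of the 3 Th0 libraries in 45 of 77 tested ribosomal protein genes, against 43.8% of all genes, and the results below are therefore also given without it. The 28 T cell markers summed to 3050, 2589 and 2123 in Th9 and to 391, 265 and 239 in Th0 of the same table. Of the 24 tested, 21 rose in Th9, where 13.4% of all genes rose. A marker could reach the minimum mean of 10 through its Th9 values alone, so this count adds little to the sums. The table with Th17 listed only 17 of the 28 markers, which summed to 199, 213 and 235 in Th17 and to 378, 258 and 238 in Th0. None of 7 tested was called there (2 at an unadjusted p under 0.05), where 1.19% of all genes were called higher and 0.39% lower. Cd3e, part of the T cell receptor complex, had 86, 61 and 54 in Th9 and 5, 3 and 2 in Th0, and among the T cell markers Cd6 and Trbc1 were listed at 0 in every Th0 library. T cells express ribosomal protein genes as well, and the part of T cell RNA in the Th9 values was not tested. In bulk RNA, fewer cells of a type and less RNA per cell cannot be told apart.

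**Figure D1:**
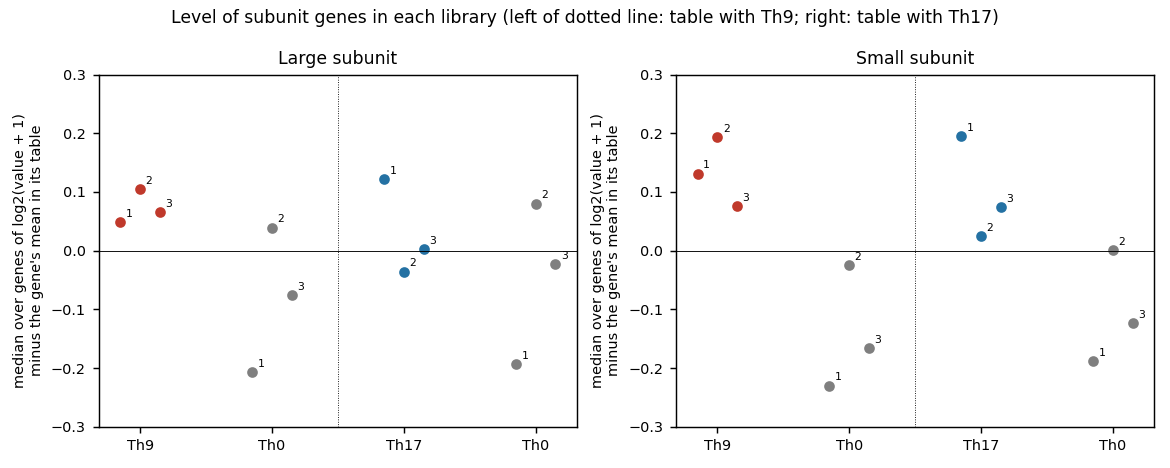
Median over the large subunit genes (left panel, 46 genes) and the small subunit genes (right panel, 31 genes) of log2(value + 1) minus the gene's mean in its table, for each library; numbers give the replicate, and the dotted line parts the table with Th9 from the table with Th17. Th0 replicate 1 has the lowest median in every panel and table, and all 3 Th9 libraries lie above all 3 Th0 libraries in both panels.

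Per kilobase of merged exons (GENCODE M21), the level of these genes spread widely around a median of 1347 normalized counts per kb in Th0 of the table with Th9. Rplp1, a protein of the stalk that recruits elongation factors, was the highest. It had 28417 per kb in Th9 and 27720 per kb in Th0 of the same table, and 25650 per kb in Th17 against 28416 per kb in Th0. Rps2, which lines the channel where mRNA enters, had 13086 per kb in Th9 against 13483 in Th0, and 11168 in Th17 against 13822 in Th0. Rpl26, which sits near the exit of the peptide tunnel, had 10880 per kb in Th9 against 12798 in Th0, and 9849 in Th17 against 13118 in Th0. The low end was held by Rpl24 and by Rpl3l, the paralog of Rpl3 that is known from skeletal and heart muscle. Rpl24 had 18.4 per kb in both Th9 and Th17, against 21.0 and 21.7 per kb in Th0 of their tables. Rpl24 lies within Gm28037 on the same strand, and how reads that fit both genes were counted is not given, so its value is uncertain. Rpl3l had 2, 7 and 5 in Th9 and 0, 5 and 5 in Th0, and 6, 2 and 4 in Th17, under the minimum mean of 10, so 77 of the 78 genes were tested. The merged exon length ranged over 383 to 6270 bases, and lengths that include rare long transcripts lower a level per kb.

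In Th9 against Th0, ribosomal protein genes were modestly higher across both subunits. By limma with Benjamini-Hochberg adjustment over all 14475 genes tested, 18 of 77 rose (9 large and 9 small subunit genes, 23.4%) and 1 fell. Of all genes tested, 13.4% rose and 11.9% fell. The fitted log2 fold change was above 0 in 68 of 77, that is 38 of 46 large and 30 of 31 small subunit genes, against 48.6% of all genes. The median log2 fold change was 0.16 for the large subunit and 0.21 for the small subunit, against -0.01 for all genes. All 3 Th9 libraries lay above all 3 Th0 libraries for 33 genes (17 large, 16 small) and below them for 1, where the share of all genes was 21.4% above and 19.2% below. Both medians stayed above 0 under every scaling tried. Without Th0 replicate 1 the large subunit median was 0.09 and the small subunit median 0.19. The count of genes called higher moved with single libraries, as did the share of all genes called higher. It was 27 without Th0 replicate 1 (18.1% of all genes), 30 without Th0 replicate 2 (13.2%), 10 without Th9 replicate 1 (7.02%) and 9 without Th9 replicate 2 (7.84%). The count of genes called lower was 4 without Th0 replicate 1 and 1 without any other single library.

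**Figure D2:**
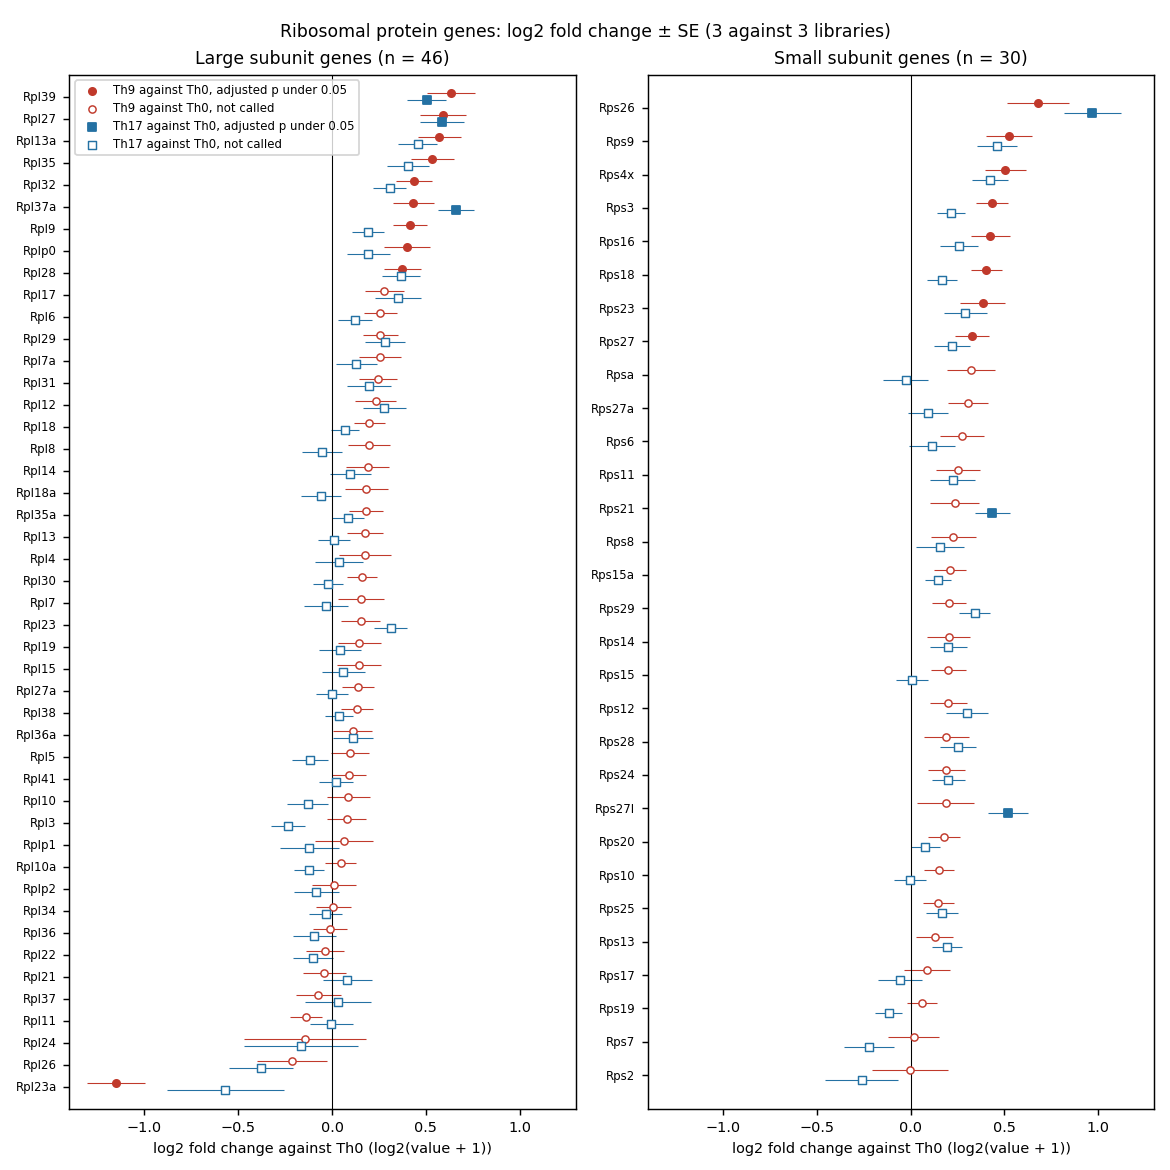
Log2 fold change with its SE for 76 of the 77 tested genes, 46 large subunit genes in the left panel and 30 small subunit genes in the right (the other tested small subunit gene is not reported here), ordered by the Th9 value; circles are Th9 against Th0, squares are Th17 against Th0, and filled marks passed an adjusted p of 0.05. Nearly all circles of the small subunit lie right of 0, and Rpl23a stands apart at the bottom of the large subunit with a log2 fold change of -1.15 in Th9.

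Of the 9 large subunit genes that rose in Th9, Rpl39, Rpl27, Rpl35 and Rpl13a had log2 fold changes of 0.53 to 0.63. Rpl39, a small protein that lines the tunnel (ENSMUSG00000079641, chromosome X, positions 37082520 to 37085402), had 704, 593 and 522 in Th9 and 426, 414 and 331 in Th0. All 3 Th9 libraries were above all Th0 libraries, and the log2 fold change was 0.63 (SE 0.13, adjusted p = 0.00356). Rpl27 (ENSMUSG00000063316, chromosome 11, positions 101442298 to 101445529) had 533, 515 and 387 in Th9 and 314, 333 and 297 in Th0. Its Th9 replicate 3 was the lowest of the Th9 libraries, and the groups still did not overlap (0.59, adjusted p = 0.00445). Rpl35, at the rim of the tunnel exit, had 884, 902 and 831 in Th9 and 563, 731 and 530 in Th0. The groups were clear of each other, and the log2 fold change was 0.53 (adjusted p = 0.00504). Rpl13a, which can leave the ribosome after interferon-gamma and then silence inflammatory mRNAs, had 669, 702 and 569 in Th9 and 469, 467 and 370 in Th0 (0.57, adjusted p = 0.0037). These 4 kept their calls with any 1 library left out, at adjusted p of 0.0367 at most. Gm45713 overlaps Rpl13a on the same strand. How reads that fit both genes were counted is not given, so the value of Rpl13a is uncertain.

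Rpl32, Rpl37a, Rpl9, Rplp0 and Rpl28 rose by 0.37 to 0.44 on the log2 scale in Th9 and depended on single libraries. Rpl37a had 1680, 1650 and 1247 in Th9 and 1117, 1107 and 1135 in Th0. Its Th0 values were nearly equal while Th9 replicate 3 lay close above them (0.43, adjusted p = 0.0125), and it lost the call without Th9 replicate 1 (adjusted p = 0.0839) or replicate 2. Rplp0, the base of the stalk, had 14943, 14979 and 14771 in Th9 and 9826, 13054 and 11228 in Th0. Here the spread lay in Th0 alone (0.40, adjusted p = 0.0301), and the call was lost without Th0 replicate 3 or any 1 Th9 library (adjusted p up to 0.126) and with the same total per library (0.0531). Rpl9 lost its call without Th9 replicate 1 (0.0532), Rpl32 without Th9 replicate 2 (0.0525), and Rpl28 without Th9 replicate 1 or 2 or Th0 replicate 3 (up to 0.101). The other stalk proteins did not pass. Rplp1 had 14043, 14200 and 14297 in Th9 and 10204, 15047 and 16246 in Th0 (0.06, adjusted p = 0.8). Rplp2 had 5419, 5900 and 5846 in Th9 and 4674, 6534 and 5982 in Th0 (0.01, adjusted p = 0.959), and for both genes Th0 held the lowest and the highest value.

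The small subunit genes were higher in Th9 with fewer exceptions, and their log2 fold changes ranged over -0.00 to 0.68. Rps3, at the mRNA entry and also known for DNA repair, had 2915, 2840 and 2565 in Th9 and 1962, 2165 and 2026 in Th0 (0.43, adjusted p = 0.00292). Rps18, in the head of the subunit, had 3268, 3106 and 3122 in Th9 and 2345, 2544 and 2292 in Th0 (0.40, adjusted p = 0.00346). Rps4x, whose gene lies on the X chromosome, had 5478, 5162 and 4521 in Th9 and 3120, 4014 and 3563 in Th0 (0.51, adjusted p = 0.00553). In these 3 genes no Th9 value reached down to Th0, and each kept its call with any 1 library left out.

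Rps26, which contacts the mRNA ahead of the start codon (ENSMUSG00000025362, chromosome 10, positions 128624530 to 128626506), had the highest fold of the small subunit in Th9. Its values were 2190, 2261 and 1306 in Th9 and 1237, 1171 and 1084 in Th0. Replicate 3 of Th9 was only just above Th0, and the log2 fold change was 0.68 (SE 0.17, adjusted p = 0.0111), with the call lost without Th9 replicate 1 (0.0668) or replicate 2. Rps9, Rps16, Rps23 and Rps27 also rose, by 0.33 to 0.52. Each of these lost its call without some library: Rps16 without Th9 replicate 2 (0.0506), Rps9 without Th9 replicate 1 (0.0686) or 2, Rps27 without Th9 replicate 1 (0.104) or 2 or Th0 replicate 3, and Rps23 without Th0 replicate 3 (0.123) or any 1 Th9 library. Rps6, the ribosomal protein that S6 kinase phosphorylates, had 5091, 5140 and 5512 in Th9 and 3747, 5226 and 4160 in Th0. Those groups overlapped (0.27, adjusted p = 0.104). Rpsa, also known as a laminin receptor, had 12739, 12801 and 14775 in Th9 and 9188, 12469 and 10769 in Th0. Its groups did not overlap, but it did not pass (0.32, adjusted p = 0.0869); without Th0 replicate 1 it was called at 0.21 (adjusted p = 0.0366).

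In Th17 against Th0 fewer ribosomal protein genes passed, and the large subunit as a group was near 0. By limma over 14342 genes, 6 of 77 rose (3 large and 3 small subunit genes) and 0 fell, against 1.19% and 0.39% of all genes (1.58% in either direction). At an unadjusted p under 0.05 there were 27 higher and 2 lower, but the shares above do not apply there. The share of all genes at that threshold is not given here. The log2 fold change was above 0 in 28 of 46 large and 25 of 31 small subunit genes, against 49.2% of all genes, and the medians were 0.04 and 0.20, against -0.00 for all genes. All Th17 libraries lay above all Th0 libraries for 25 genes (9 large, 16 small) and below them for 3, where the share of all genes was 12.8% above and 10.6% below. Both medians stayed above 0 under every scaling tried, while that of the large subunit turned to -0.01 with array weights and to -0.02 without Th0 replicate 1. Whether the subunits differ from each other, or Th17 from Th9, was not tested. The 6 calls rest on single libraries: 19 genes were called higher without Th0 replicate 1 (6.85% of all genes), 10 without Th0 replicate 2 (1.71%), and 1 or 2 without Th0 replicate 3 or any 1 Th17 library (0.0975% to 0.375%). Th17 replicate 1 was the highest of the 3 Th17 libraries in 60 of 77 genes, against 36.5% of all genes.

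Of the 6, Rps26, Rpl37a, Rpl27 and Rpl39 had also been called in Th9, with the same Th0 libraries as controls. Rps26 had 3135, 2085 and 1947 in Th17 and 1272, 1196 and 1113 in Th0. Replicate 1 was far above the other Th17 libraries, all of which exceeded Th0, and the log2 fold change was 0.97 (SE 0.15, adjusted p = 0.011), the highest among the 77 genes. The call was lost without Th0 replicate 3 (0.071). Rpl37a (ENSMUSG00000046330, chromosome 1, positions 72711290 to 72713813) had 2111, 1668 and 1701 in Th17 and 1149, 1131 and 1165 in Th0. This was the smallest adjusted p among the 77 genes in Th17 (0.66, SE 0.09, adjusted p = 0.00763), and the call was lost without Th17 replicate 1 (0.0573) or 3. Rpl27 had 583, 450 and 434 in Th17 and 323, 340 and 305 in Th0 (0.59, adjusted p = 0.0343). Rpl39 had 572, 553 and 570 in Th17 and 439, 422 and 340 in Th0 (0.50, adjusted p = 0.0377). Both lost the call without Th0 replicate 3 or any 1 Th17 library, at adjusted p up to 0.158 and 0.21.

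Rps27l and Rps21 were called in Th17 and not in Th9, though both were called in Th9 under some alternatives. Rps27l, a paralog of Rps27 that p53 induces (ENSMUSG00000036781, chromosome 9, positions 66946086 to 66949516), had 310, 288 and 301 in Th17 and 208, 233 and 188 in Th0 (0.52, SE 0.11, adjusted p = 0.0385). In Th9 it had 258, 266 and 182, against 202, 228 and 183 in Th0 of that table, which overlap (0.19, adjusted p = 0.401). With array weights it was called higher in Th9 (0.32, adjusted p = 0.0375). Rps27 itself had 1448, 1222 and 1296 in Th17 and 1081, 1271 and 1054 in Th0 (0.22, adjusted p = 0.253). The paralogs are alike in sequence, so reads may be split between them. Rps21 had 1420, 1220 and 1175 in Th17 and 1019, 935 and 863 in Th0 (0.44, adjusted p = 0.0493). In Th9 Rps21 had 1171, 1257 and 848, against 991, 915 and 841 in Th0 of that table (0.24, adjusted p = 0.211). It was called higher in Th9 with array weights and without Th9 replicate 3. Rps27l lost its call without Th0 replicate 3 or any 1 Th17 library (up to 0.222) and with the same total per library (0.0595), and Rps21 without Th0 replicate 2 or 3 or any 1 Th17 library (up to 0.249) and with the same total (0.0754). Rpl13a (0.46, adjusted p = 0.0583), Rps4x (0.42, 0.0592) and Rps9 (0.46, 0.0603) lay just past the threshold over all libraries, and all 3 were called without Th0 replicate 1 (adjusted p of 0.00277 at most).

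**Figure D3:**
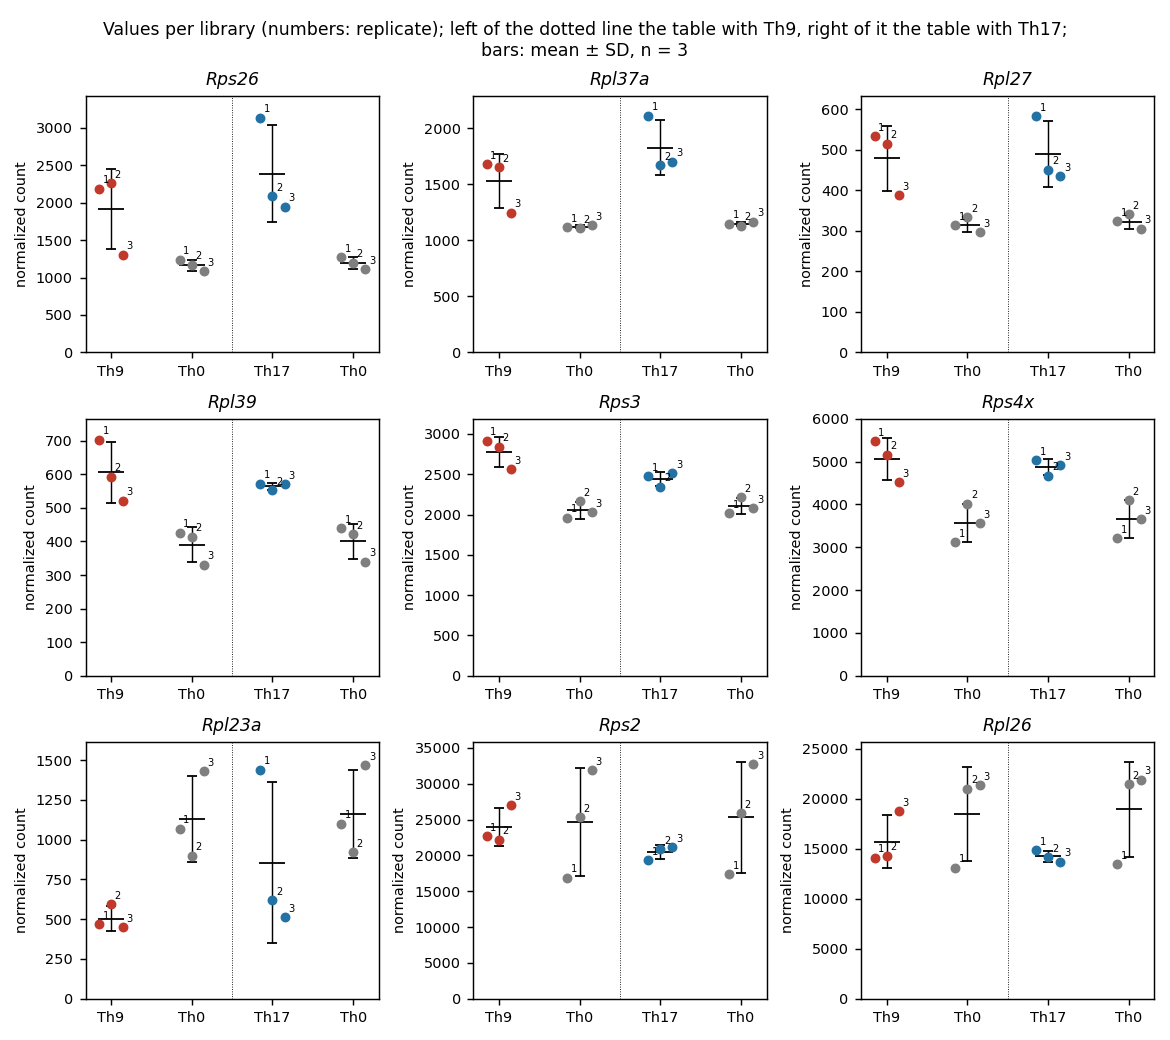
Normalized count per library for 9 genes, with the replicate number beside each point and the mean with its SD (n = 3) as bars; left of each dotted line is the table with Th9 and right of it the table with Th17. Th0 values of Rpl37a lie close together below Th9 and Th17, whereas Rps2 and Rpl26 have Th0 replicate 1 far below the other Th0 libraries, and Rpl23a has Th17 replicate 1 far above the other Th17 libraries.

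Rpl23a was the only ribosomal protein gene called lower in Th9. Its protein sits at the tunnel exit, where the signal recognition particle docks (ENSMUSG00000058546, chromosome 11, positions 78180932 to 78183584, minus strand). It had 469, 594 and 448 in Th9 and 1069, 900 and 1429 in Th0. No Th9 value came near Th0, and the log2 fold change was -1.15 (SE 0.15, adjusted p = 0.000206), with adjusted p of 0.00314 at most when any 1 library was left out. In Th17 it had 1439, 618 and 511, against 1100, 920 and 1467 in Th0 of that table. Replicate 1 of Th17 lay within Th0 and the other Th17 libraries below it, and the test did not pass (-0.57, SE 0.31, adjusted p = 0.376), though it did with array weights (-0.88, adjusted p = 0.016). Single libraries moved this value, to -1.02 without Th17 replicate 1 (adjusted p = 0.0686) and to -0.27 without Th17 replicate 3 (adjusted p = 0.782). Tlcd1, which overlaps Rpl23a on the other strand, had 81, 88 and 100 in Th9 and 152, 101 and 114 in Th0. The library kit marks the strand per the labels' protocols, but whether counting used it is not given in the sources used here, so reads of the genes may mix.

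Rps2 and Rpl26, among the most abundant of these genes, varied widely between the Th0 libraries. Rps2 had 22646, 22189 and 27005 in Th9 and 16868, 25292 and 31862 in Th0. In the table with Th17 it had 19348, 20842 and 21121 in Th17 and 17348, 25839 and 32697 in Th0. The value of Th0 replicate 1 was below every other library in both tables, and neither comparison passed (-0.00 and -0.26, adjusted p = 0.998 and 0.53). Rpl26 had 14108, 14291 and 18731 in Th9 and 13100, 21004 and 21338 in Th0. It had 14828, 14141 and 13696 in Th17, against 13472, 21458 and 21897 in Th0, with Th0 replicate 1 again apart, and did not pass in Th9 (-0.21, adjusted p = 0.444) or Th17 (-0.38, adjusted p = 0.27). Without Th0 replicate 1 both genes were called lower in both comparisons: Rpl26 at -0.44 in Th9 (adjusted p = 0.00101) and -0.61 in Th17 (adjusted p = 1.06e-05), Rps2 at -0.25 in Th9 (adjusted p = 0.0413) and -0.51 in Th17 (adjusted p = 0.000812). RNA of mitochondrial ribosomes and Gm26917 was highest in the library left out, and its part in these values was not tested.

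Without Th0 replicate 1, 27 ribosomal protein genes were called higher and 4 lower in Th9, against 18.1% higher and 19.1% lower among all genes. The lower ones were Rpl23a, Rpl26, Rps2 and Rpl11. In Th17 without it, 19 were called higher and 10 lower, against 6.85% higher and 9.7% lower among all genes. Beside Rpl26 and Rps2, the lower ones in Th17 were Rps7 (-0.38), Rplp1 (-0.32), Rpl3, at the site of peptide bond formation (-0.31), Rpl10 (-0.26), Rplp2 (-0.22), Rpl5 (-0.22), Rpl7 (-0.17) and Rpl8 (-0.16). Over the 77 genes, the Spearman correlation of the log2 fold change with the Th0 level was -0.17 in Th9 and -0.40 in Th17 with all libraries. Without Th0 replicate 1 it was -0.38 in Th9 and -0.53 in Th17. These are descriptions across genes, which are not independent replicates, and the Th0 values enter both axes. The Spearman correlation with merged exon length was -0.12 in Th9 and -0.19 in Th17.

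**Figure D4:**
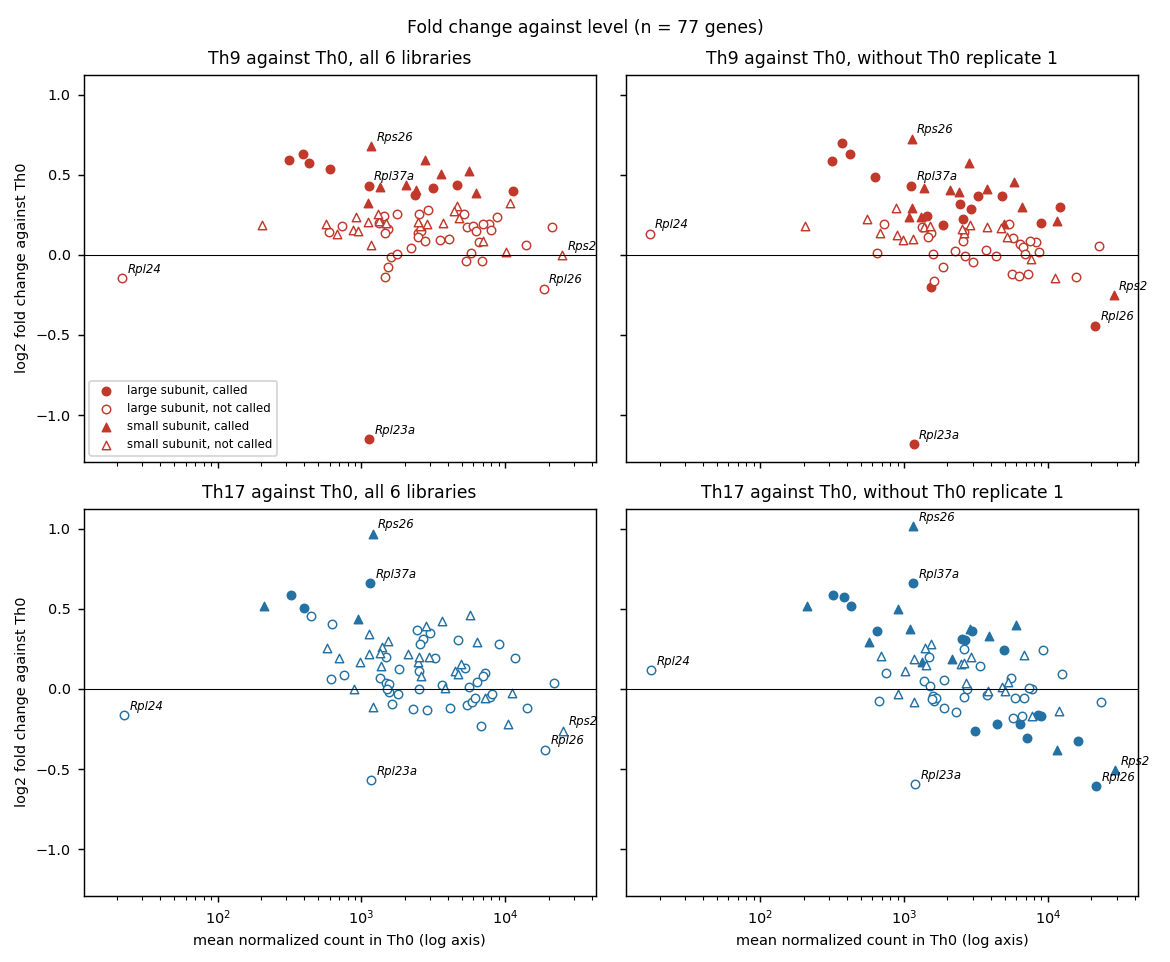
Log2 fold change against the mean normalized count in Th0 (log axis) for the 77 tested genes, Th9 in the upper and Th17 in the lower row, with all 6 libraries at left and without Th0 replicate 1 at right; circles are large and triangles small subunit genes, and filled marks passed an adjusted p of 0.05. Without Th0 replicate 1, Rpl26 and Rps2 at the right-hand end are filled and below 0 in both rows, at -0.44 and -0.25 in Th9 and -0.61 and -0.51 in Th17.

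The genes that link the ribosome to p53, Rpl5 and Rpl11, passed in neither comparison over all libraries. Rpl5 had 4287, 4359 and 4241 in Th9 and 3478, 4420 and 4220 in Th0 (0.10, adjusted p = 0.52), and in Th17 its log2 fold change was -0.12 (adjusted p = 0.58). Rpl11 had 1316, 1400 and 1273 in Th9 and 1343, 1494 and 1566 in Th0 (-0.14, adjusted p = 0.259), and in Th17 it was at -0.00 (adjusted p = 0.993). Without Th0 replicate 1, Rpl11 was called lower in Th9 (-0.20, adjusted p = 0.0248) and Rpl5 in Th17 (adjusted p = 0.0119). Mdm2, their partner outside the ribosome, had 2644, 2640 and 2507 in Th9 and 1860, 2154 and 2040 in Th0. It rose in Th9 (0.37, adjusted p = 0.00754), a call lost without Th9 replicate 1 (0.054), and was at -0.01 in Th17 (adjusted p = 0.956). Of the 6 tested genes of this checkpoint, 3 were called higher in Th9 (Mdm2, Cdkn1a and Trp53) and 0 lower, with a median of 0.23, where 13.4% of all genes were called higher and 11.9% lower. In Th17 none of the 6 was called (1 at an unadjusted p under 0.05), with a median of -0.05. With Th0 replicate 1 left out, 4 were called higher and 1 lower in Th9, beside 18.1% and 19.1% of all genes. In Th17 without it 1 was called higher and 1 lower, beside 6.85% and 9.7% of all genes.

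Rpl22, Rpl22l1 and Rpl3 did not pass in either comparison over all libraries. Rpl22l1, the paralog of Rpl22, had 229, 253 and 234 in Th9 and 259, 284 and 229 in Th0 (-0.10, adjusted p = 0.543). Rpl22 itself was at -0.04 in Th9 (adjusted p = 0.818) and -0.10 in Th17 (adjusted p = 0.678), with overlapping groups in both. Rpl3, the paralog of Rpl3l, had 6513, 6796 and 7600 in Th9 and 5948, 7086 and 6774 in Th0 (0.08, adjusted p = 0.619). In Th17 all 3 values of Rpl3 lay below Th0, at 5662, 5668 and 5899 against 6117, 7240 and 6951 (-0.23, adjusted p = 0.2). Rpl10, among the last proteins to join the large subunit, was at 0.09 in Th9 (adjusted p = 0.623) and -0.13 in Th17 (adjusted p = 0.589).

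Ribosomal proteins encoded outside the symbol pattern were tested for 6 genes, of which 1 rose and 1 fell in Th9, where 13.4% of all genes rose and 11.9% fell. Rack1, a signalling scaffold on the small subunit, had 8821, 8368 and 8368 in Th9 and 6420, 7162 and 6551 in Th0, and rose (0.35, adjusted p = 0.0181). Fau, a fusion of a ubiquitin-like protein with Rps30, had 3656, 3721 and 4228 in Th9 and 2816, 4554 and 4293 in Th0 (0.02, adjusted p = 0.938). The call of Rack1 was lost without Th0 replicate 3 or any 1 Th9 library (adjusted p up to 0.115, without Th9 replicate 1). None of the 6 tested genes of this kind was called in Th17 (2 at an unadjusted p under 0.05), with a median of -0.12. Of the 6, 1 was called higher and 3 lower without Th0 replicate 1, in Th9 and likewise in Th17. The shares of all genes were then 18.1% higher and 19.1% lower in Th9, and 6.85% and 9.7% in Th17. Fau was then called lower in Th9 (-0.20, adjusted p = 0.031) and Th17 (-0.50, adjusted p = 8.01e-05).

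Of 19 translation factors and partners whose mRNAs also carry a TOP tract, 6 rose and 0 fell in Th9, with a median of 0.20, where 13.4% of all genes rose and 11.9% fell. In Th17 none of the 19 was called (3 at an unadjusted p under 0.05), with a median of 0.06. When Th0 replicate 1 was left out, 7 were called higher and 2 lower in Th9 (median 0.10), beside 18.1% and 19.1% of all genes. In Th17 without it 4 were called higher and 4 lower (median -0.02), beside 6.85% and 9.7% of all genes. Eef1a1, which brings tRNA to the ribosome, had 54941, 54085 and 52547 in Th9 and 33028, 42555 and 34810 in Th0 (0.56, adjusted p = 0.027). It had 51376, 50528 and 51222 in Th17, against 33968, 43476 and 35722 in Th0 of that table, with no overlap but short of the threshold (0.44, adjusted p = 0.161); without Th0 replicate 1 it was called (adjusted p = 0.0037). Eef2, which moves the ribosome along the mRNA, rose in Th9 (0.47, adjusted p = 0.0442) and was at 0.18 in Th17 (adjusted p = 0.566). The Th9 calls of Eef1a1 and Eef2 were lost without Th0 replicate 3 or any 1 Th9 library (adjusted p up to 0.138 and 0.184) and with the same total per library. The remaining 4 were Eif3f, Eif3h, Btf3 and Pabpc1.

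Of 49 ribosome assembly and nucleolar factors, 9 rose in Th9 and 2, Ebna1bp2 and Nop58, fell, with a median of 0.08, beside 13.4% and 11.9% of all genes. The smallest adjusted p among those that rose were of Wdr75 (0.54), Heatr1 (0.43), Rcl1 (0.45) and Utp15 (0.42). In Th17, 0 rose and 1, Ppan, fell (-0.41, adjusted p = 0.0367), with a median of -0.09. Leaving out Th0 replicate 1, 12 were called higher and 8 lower in Th9 (median -0.00), and 3 higher and 19 lower in Th17 (median -0.18), against 18.1% and 19.1% of all genes in Th9 and 6.85% and 9.7% in Th17. The nucleolar proteins Npm1, Ncl and Fbl passed in neither comparison over all libraries (adjusted p of 0.274 at least in Th9 and 0.522 at least in Th17). Ncl was called lower without Th0 replicate 1 in Th9 (-0.31, adjusted p = 0.00257) and Th17 (-0.43, adjusted p = 0.00168), and also with array weights (adjusted p = 0.0388 in Th9 and 0.00934 in Th17).

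Among 24 genes of RNA polymerase I and 5S transcription, Polr1b, a core subunit, rose in Th9 (0.63, adjusted p = 0.000473), and Ubtf, the factor that opens ribosomal DNA, fell with Taf1d and Cd3eap (median 0.02). That is 1 higher and 3 lower in Th9, beside 13.4% and 11.9% of all genes. Polr3d fell in Th17 (-0.37, adjusted p = 0.0385, list median -0.05), where 1.19% of all genes rose and 0.39% fell. Without Th0 replicate 1, 6 of the 24 were called lower in Th17, beside 9.7% of all genes. Among 17 genes around mTORC1, 6 rose in Th9 and 1, Akt1s1, fell, with a median of 0.17, beside 13.4% and 11.9% of all genes. The 6 included Sesn2, an inhibitor of mTORC1 (1.42), Deptor, another inhibitor, and Eif4ebp1, which blocks translation until mTORC1 phosphorylates it (0.65, adjusted p = 0.000179). In Th17 Eif4ebp2 rose (0.58, adjusted p = 0.0164) and Akt1s1 fell (-0.45, adjusted p = 0.0493), with a median of 0.04. In Th9 without Th0 replicate 1, 8 of the 17 were called higher and 1 lower, beside 18.1% and 19.1% of all genes. In Th17 without it 3 were called higher and 4 lower, beside 6.85% and 9.7% of all genes. Larp1, which binds TOP mRNAs, was at 0.14 in Th9 (adjusted p = 0.335) and -0.14 in Th17 (adjusted p = 0.457), and was called lower in Th17 without Th0 replicate 1 (adjusted p = 0.00507). Of 10 chaperones and importers of ribosomal proteins, Ipo7 rose (0.73, adjusted p = 0.00151) and Aamp, Bccip and Nap1l4 fell in Th9 (median -0.12), beside 13.4% and 11.9% of all genes. None of the 10 was called in Th17 (1 at an unadjusted p under 0.05, median -0.09). Of the 10, 2 were called higher and 4 lower in Th9, and 3 lower in Th17, without Th0 replicate 1, beside the same shares of all genes as for the mTORC1 genes.

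Many ribosomal protein genes host small nucleolar RNAs (snoRNAs), which guide changes of ribosomal RNA, in their introns. A snoRNA gene lay inside 29 of the 78 genes, 56 snoRNA genes in all. The hosts had a median log2 fold change of 0.18 in Th9 and 0.08 in Th17, and the tested genes without a snoRNA had 0.19 and 0.11. Snord34, in Rpl13a, had 274, 308 and 107 in Th9 and 629, 80 and 73 in Th0. Snord32a, in the same gene, had 151, 165 and 90 in Th9 and 476, 98 and 82 in Th0. For both snoRNAs Th0 replicate 1 was far above every other library of the table, whereas for the host Rpl13a it was within 2 normalized counts of Th0 replicate 2. A gene on the other strand overlapped 21 of the 78, and the median log2 fold change with and without such a gene was 0.19 and 0.19 in Th9 and 0.09 and 0.11 in Th17. Of 299 annotated genes named as pseudogenes of these genes (symbols with -ps), 76 were listed in the table with Th9. There they summed to 787, 862 and 727 in Th9 and 679, 789 and 703 in Th0. These sums are small beside the level of most parent genes, but they leave out any pseudogene under another kind of symbol. How reads that fit both a pseudogene and its parent were counted is not given in the sources used here.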

How the data were processed

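Libraries from total RNA were prepared with a kit that keeps the strand, per the labels' protocols. The submitters' processing notes list DESeq2 1.62, featureCounts 1.4.5-p1, Subread and STAR 2.4.0a and, as builds, GRCm38 and mm10, with no role for any. The authors deposited, in a table with Th9 (18816 genes) and a table with Th17 (18511 genes), whole-number scores per gene: rounded normalized counts. The 3 Th0 libraries differed between tables by factors of 1.03, 1.02 and 1.03, with 3 of 18022 shared genes off by more than 1 in each. Per-sample columns not used: 0.

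The values are not raw counts, so limma-trend (limma 3.58.1, R 4.3.3) was run in each table on log2(value + 1), group as the only term, leaving out genes whose mean was under 10. A call is a Benjamini-Hochberg adjusted p under 0.05 over all genes. The code was run on simulated data with 200 changed genes. The spread between simulated libraries was fixed and not taken from these data, so no error rate for these data follows. An exact permutation test of 3 against 3 cannot go below p = 0.1. Alternatives were other pseudocounts, filters, scalings, array weights, a replicate block and each library left out. The raw depth behind the normalized values is unknown; Rpl24 and Rpl3l have the lowest values.

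Genes were named by rule: in each comparison the 8 called in each direction with the smallest adjusted p, the extremes per subunit, and lists of paralogs, stalk proteins and proteins with other roles. Rpl26, Rps7, Rpl7, Rpl8, Rpl9, Rpl32, Rpl28, Rps9, Rps16, Rps23, Rpl24, the snoRNAs, Tlcd1, Cd6 and Trbc1 were added after their values were seen. The members and lists were chosen with earlier results of these data known. Of the other markers listed, B cell and plasma cell markers summed to 52, 55 and 44 in Th9 and 100, 76 and 47 in Th0, and to 34, 35 and 36 in Th17 and 103, 78 and 50 in Th0 of that table. Myeloid markers summed to 89, 95 and 82 in Th9 and 119, 67 and 57 in Th0, and to 80, 81 and 76 in Th17 and 123, 67 and 58 in Th0. Of 8 mesenchymal and epithelial markers listed for LLC1, 4 fell in Th9 and 0 in Th17, beside 11.9% and 0.39% of all genes. Without Th0 replicate 1, 8 fell in Th9 and 3 in Th17, beside 19.1% and 9.7% of all genes. Whether these falls reflect less LLC1 RNA was not tested. Exon lengths and overlaps came from GENCODE M21, which held all 78 genes, 60 with identical coordinates. Promoters came from RefSeq. That of Rpl23a is among the 20 without an entry. Some genes covered by these rules are counted in the totals but not reported here.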

Additional observations from a re-analysis of the deposited data

How the results depend on the processing

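In Th9 against Th0, 18 ribosomal protein genes rose and 1 fell among 3653 genes called. With the same total per library the medians were 0.27 (large subunit) and 0.32 (small subunit), the median of all genes moved by that scaling to 0.10, and relative to it the subunits stood at 0.17 and 0.22; 2252 genes (73.9% of calls) were then called higher, whereas with the deposited scaling 1937 of 3653 were. When totals were equalised leaving out the 3 RNA genes, 34 rose, and with array weights 40 rose and 4 fell among 6628 genes. With each library left out, 9 to 30 rose, 1 to 4 fell, 1853 to 5336 genes were called, and the medians ranged over 0.09 to 0.24 (large) and 0.19 to 0.28 (small). Fau, outside the rule, turned to -0.20 without Th0 replicate 1. In Th17 against Th0, 6 rose and 0 fell among 226 genes. With the same total 139 genes were called (85.6% higher, against 75.2%), and when the 3 RNA genes were left out of those totals 447, of which 15 were ribosomal protein genes that rose, and with TMM factors 10 rose. With array weights 30 rose and 9 fell among 3361 genes, 46.8% of them higher. With each library left out, 1 to 19 rose, 0 to 10 fell and 16 to 2352 genes were called, with 41.4% higher without Th0 replicate 1, and the medians ranged over -0.02 to 0.11 and 0.14 to 0.25. The causes were not tested, though each fit without a library also has fewer samples. Under the remaining alternatives these results stayed within 1.5 times the count or within the replicate spread.

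Of 688 values for 46 named genes in Th9, 628 kept their side of the threshold, 45 lost a call and 14 gained one. A value that changed sign was counted among the 628 if neither fit called it. The remaining 1, Fau without Th0 replicate 1, changed sign and was then called. Of the 45 and 14, 46 came with a library left out. In Th17, of 537 values for 36 genes, 480 kept their side of the threshold by the same count, 22 lost and 35 gained a call. Of the called ribosomal protein genes, 9 of 19 in Th9 and 0 of 6 in Th17 kept their calls with every library left out, and all kept their sign.

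The replicate numbers do not pair the samples: same-numbered libraries correlated at 0.11, -0.01 and 0.15 in Th9 and at -0.05, -0.08 and 0.04 in Th17, and not every library correlated best with its own number. With the replicate block 22 rose and 1 fell in Th9 (4076 genes), and 7 rose and 0 fell in Th17 (262 genes).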
